A study of Mus musculus with 2148 samples.

Results

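In single thymic epithelial cells, 10 genes of striated muscle were followed, out of the 48437 genes of the count table. They were chosen by name, with Ensembl identifiers matched to symbols: Chrna1, Myog, Des, Myh3, Myh4, Ttn, Flnc, Actc1, Mybpc1 and Tnnt3. Each was found by exactly 1 identifier and each passed the filter on low counts, so all 10 were tested in every comparison. The question put to them was whether medullary cells read muscle genes singly and scattered over cells or several together in some cells, and whether their levels differed between mice with and without Aire.

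Medullary thymic epithelial cells (mTECs) transcribe genes that otherwise belong to particular organs, and so present the products of those genes to developing T cells. Aire is a nuclear protein of mature mTECs that raises the transcription of many such genes. In muscle the members sit along 1 chain of events: myogenin switches on the muscle programme, myosins, actin and titin build the sarcomere, and the acetylcholine receptor receives the nerve signal. The alpha subunit of that receptor, the product of Chrna1, is the main autoantibody target in myasthenia gravis, and titin is another target in patients with a thymoma.

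Cells were sorted from the thymus of C57BL/6 mice by flow cytometry as DAPI-negative, CD45-negative and EpCAM-positive. Ly51-negative cells with high or low MHC class II gave mTEChi and mTEClo, and Ly51-positive cells gave cortical cells (cTEC). Each cell was a separate RamDA-seq library, a full-length method with random and oligo(dT) primers that reads total RNA. The roughly 2000 cells make 8 groups, and cell numbers over 100 in this paragraph are rounded to the nearest 10. Adult wild-type (WT) mTEChi had 620 cells in 4 mouse pools, which were 440 cells of 4-week males (pool 1), 12 of 5-week males (pool 2), 82 of 6-week males (pool 3) and 82 of 4-week females (pool 4). Adult WT mTEClo had 360 cells in 3 pools, which were 220 cells of 8-week males (pool 1), 74 of 5-week males (pool 2) and 66 of 4-week males (pool 3). Adult Aire-KO mTEChi had 340 cells and adult Aire-KO mTEClo had 150, all from 5-week males. Adult WT cTEC had 77 cells of 6-week males on 1 plate. Newborn WT groups, 1 day old and of unknown sex, had 170 mTEChi, 120 mTEClo and 140 cTEC, sorted onto the same 5 plates. A pool here is the set of cells of a group with the same age and sex labels. The labels number no mice, so pools may hold several mice, and p-values measure the spread between such pools only. Every group other than adult WT mTEChi and mTEClo had 1 pool, and a test of such a group takes its spread from the groups with several pools.

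Cells held 203010 to 1823784 reads with a median of 692880, and group medians ran from 532926 to 862537. Levels are given as CPM, the reads of a gene per 1e6 reads of a pool. Aire was at 1109.7 to 1844.6 CPM in the 4 pools of WT mTEChi, at 26.1 in Aire-KO mTEChi, at 26.1 to 39.5 in WT mTEClo and at 0.153 in Aire-KO mTEClo. The summed level of 7 thymic epithelium markers was 4915 to 6265 CPM in WT mTEChi and 3017 to 5321 in WT mTEClo, with none of the 7 under 1 CPM in WT mTEChi. Of other cell types, the 4 satellite cell markers (Pax7, Pax3, Myf5 and Cdh15) summed to 27.3 to 63.3 CPM in WT mTEChi, 10.1 in Aire-KO mTEChi and 6.83 to 17.3 in WT mTEClo, and Myf5 was under 1 CPM in every WT mTEChi pool. The 6 pericyte and smooth muscle markers summed to 730.8 to 928.5, 777.3 and 463.7 to 1390.3 CPM in the same groups. The 4 tuft cell markers were at 42.1 to 303.4 CPM in WT mTEChi, but at 450.7, 3258 and 3589 CPM in pools 1, 2 and 3 of WT mTEClo, so the mTEClo pools differ in makeup. The part of these other cell types in the results was not tested.

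Promoter stretches of 3 members are shown, because Chrna1, Myh4 and Myog stand for the receptor, the myosins and the regulator among the members, and because muscle promoters carry short motifs that muscle factors bind. The E-box CANNTG is bound by the MyoD family, to which myogenin belongs, and CAGCTG is its form with GC in the middle, so that every CAGCTG is also a CANNTG. The MEF2 site and the CArG box are bound by MEF2 proteins and by serum response factor. Capitals mark motif matches on either strand, and all 3 stretches are printed in the direction of the gene. Sequences are from RefSeq on GRCm38.p6.
Chrna1, chr2:73580339-73580438, minus strand: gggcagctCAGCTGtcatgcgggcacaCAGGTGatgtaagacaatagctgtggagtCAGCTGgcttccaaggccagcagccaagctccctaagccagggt
Myh4, chr11:67237622-67237811, plus strand: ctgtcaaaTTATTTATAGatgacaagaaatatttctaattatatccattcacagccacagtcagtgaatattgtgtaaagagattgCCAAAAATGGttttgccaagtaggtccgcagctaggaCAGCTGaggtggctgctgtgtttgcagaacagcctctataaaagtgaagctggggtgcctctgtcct
Myog, chr1:134289854-134290003, plus strand: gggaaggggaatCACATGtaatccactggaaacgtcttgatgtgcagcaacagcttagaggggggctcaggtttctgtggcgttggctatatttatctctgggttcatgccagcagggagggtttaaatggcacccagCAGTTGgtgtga

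In the Chrna1 stretch CAGCTG begins 92 and 44 bases before the transcript start, with a further E-box at 73. In Myh4 the MEF2 site, the CArG box and CAGCTG follow each other in that order, and CAGCTG begins 67 bases before the start. In Myog E-boxes stand near both ends of the stretch, the second of them 12 bases before the start. Over windows from 250 bases before to 50 after a start, 9 of the 10 members had an entry. CANNTG was in 8 of the 9 and in 72.3% of all 32851 windows, CAGCTG in 4 of 9 (Chrna1, Des, Mybpc1 and Myh4) and in 16.3%, the MEF2 site in 2 of 9 (Myh4 and Ttn) and in 3.19%, and the CArG box in 2 of 9 (Actc1 and Myh4) and in 1.63%. The MEF2 search allowed only A or G as the last base, so ctatatttat in the Myog stretch, which ends in T, is not marked. A match is a description of the letters and not a bound site, and no match does not exclude a site.

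Compared per length, as CPM per kb of exon, the means of the members in WT mTEChi ran from 11.6 to 1.27. Ttn was at 11.6 ± 3.15 (mean ± SD, n = 4 pools), Tnnt3 at 7.52 ± 7.24, Des at 7.36 ± 3.54, Chrna1 at 6.44 ± 4.68, Myh4 at 5.86 ± 3.13, Myh3 at 5.04 ± 4.22, Myog at 4.80 ± 5.00, Actc1 at 2.53 ± 2.22, Mybpc1 at 1.31 ± 0.789 and Flnc at 1.27 ± 1.41. Each neighbour in this order differed from the next by less than the larger SD of the pair, so the order of neighbours is not firm. Single pools set some places in it: Tnnt3 was at 3.92 without the 12-cell pool 2, Myog at 2.33 without pool 4, Actc1 at 1.59 without pool 3 and Flnc at 0.604 without pool 1. The very high CPM of Ttn, the giant spring protein of the sarcomere, thus goes with its 116.825 kb of exon, against 1.495 to 9.402 kb for the others.

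**Figure D1:**
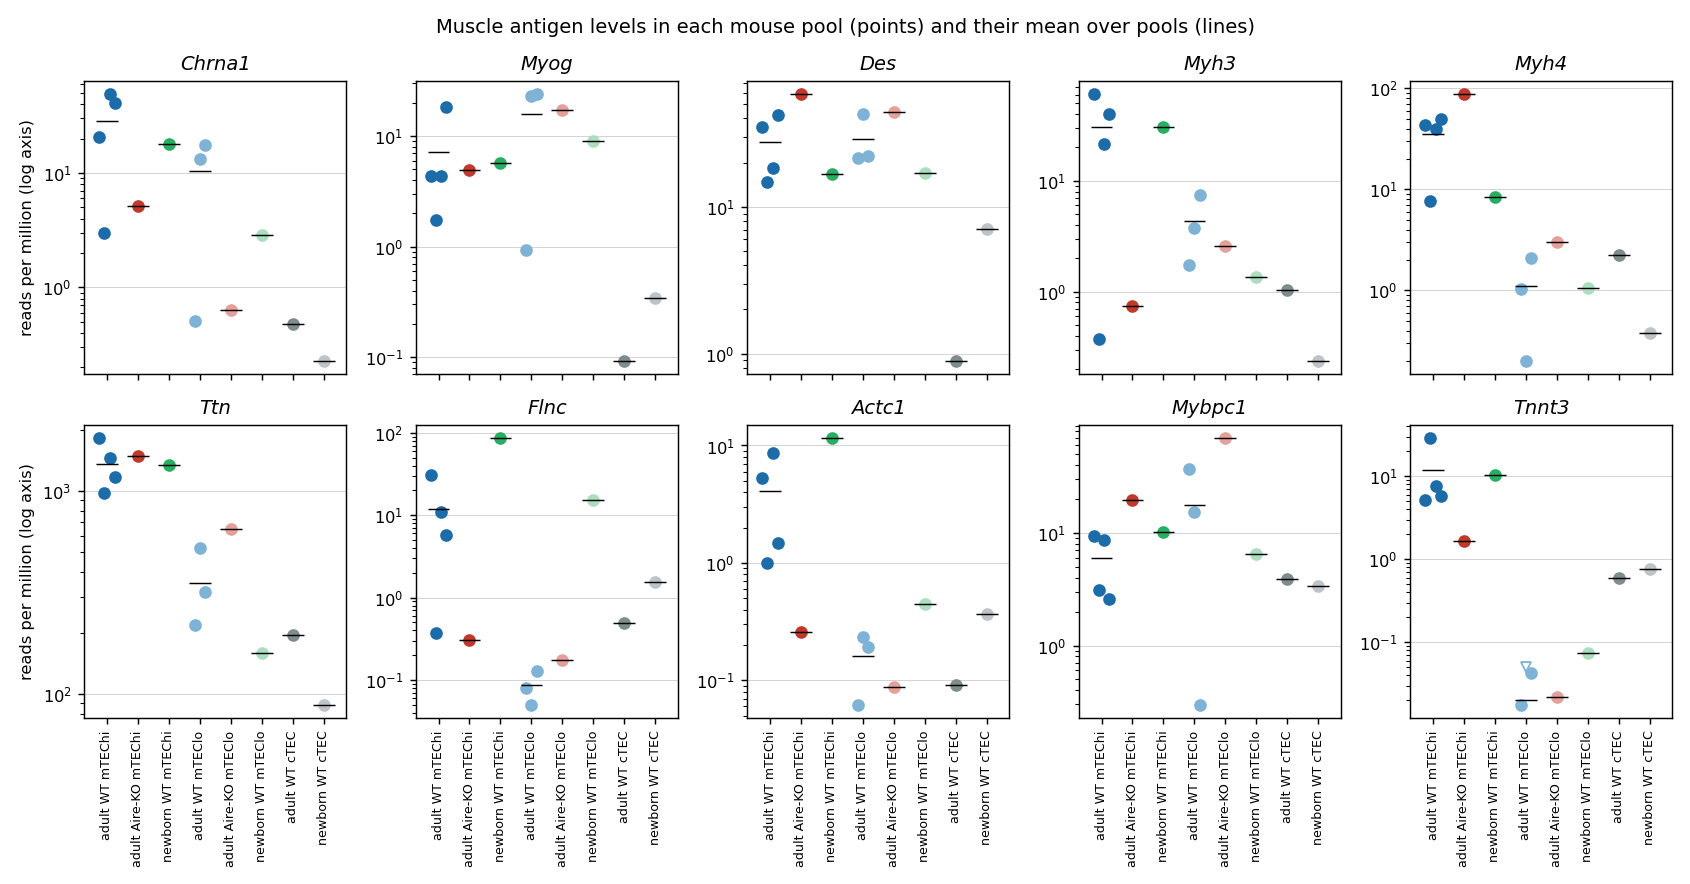
Level of each of the 10 muscle genes (CPM, log axis) in every mouse pool of the 8 groups, 1 point per pool, with a line at the mean over pools. Tnnt3, Flnc, Actc1, Myh4 and Ttn lie higher in every WT mTEChi pool than in every WT mTEClo pool, and the open triangle marks Tnnt3 at 0 reads in pool 2 of WT mTEClo. The point of Flnc in pool 2 of WT mTEChi stands for 3 reads.

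The first comparison was between adult WT mTEChi and mTEClo. In mTEChi 5 members were called higher (Tnnt3, Flnc, Myh4, Actc1 and Ttn) and 0 lower, by edgeR's quasi-likelihood test over the 11 mTEC pools where a call needs a difference of 2-fold or more and an adjusted p (Benjamini-Hochberg) below 0.05. Over all 39971 genes tested the same rule called 11.7%, with 7.54% higher and 4.13% lower. The members' median log2 difference was 2.23, beside 0.30 for all genes. In sums over pools, more cells with a transcript and more RNA per cell cannot be told apart, so the share of cells with 5 or more reads of a gene is given beside the levels.

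Tnnt3 encodes the fast skeletal form of troponin T, which ties the calcium switch of the thin filament to tropomyosin. Its level was 5.15, 29.03, 7.63 and 5.83 CPM in pools 1 to 4 of WT mTEChi and 0.0178, 0 and 0.0426 CPM in pools 1 to 3 of WT mTEClo. The groups did not overlap, and the highest value, in the 12-cell pool 2, came to 87.9% from 1 cell. Summed over the groups there were 2856 reads in mTEChi and 4 in mTEClo, which is 5.98 CPM (95% Poisson interval 5.76 to 6.20) against 0.0182 (0.00497 to 0.0467), counting error only. At least 5 reads were found in 16.6% ± 6.11 of mTEChi cells (n = 4 pools) and in no mTEClo cell, where the limit that a count of 0 allows (3 cells of the group) is a share of 0.840%. The fitted log2 difference was 9.0 ± 1.26 (SE) with an adjusted p of 0.00596 (edgeR), and its size rests on those 4 reads. Tnnt3 overlaps the lincRNA Prr33 on the opposite strand, and reads were counted without strand, so reads of the pair cannot be told apart.

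Flnc encodes filamin C, which crosslinks actin at the Z-disc and at the muscle cell membrane. WT mTEChi pools held 30.7, 0.375, 11.0 and 5.71 CPM and WT mTEClo pools 0.0800, 0.05 and 0.128. Every mTEChi pool was above every mTEClo pool, but mTEChi pool 2 held only 3 reads, and mTEClo pools 2 and 3 held 3 and 6. Few cells carried the mTEChi reads: 2 of the 620 cells held 50% of them, and 1 cell gave 98.8% of those in mTEChi pool 3. At least 5 reads were found in 3.10% ± 2.98 of mTEChi cells and 0.66% ± 0.78 of mTEClo cells. The log2 difference was 6.92 ± 1.39 (adjusted p 0.0189, edgeR). The call was lost without mTEClo pool 2 (adjusted p 0.0730) and without mTEClo pool 3.

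Actc1 encodes the alpha actin of the heart, which skeletal muscle also makes before birth. Its level was 5.24, 1.00, 8.68 and 1.48 CPM in WT mTEChi and 0.0622, 0.233 and 0.192 CPM in WT mTEClo. The groups did not overlap, and again 2 of 620 cells held 50% of the reads. At least 5 reads were found in 2.73% ± 2.07 of mTEChi cells and in no mTEClo cell. The log2 difference was 4.52 ± 1.01 (adjusted p 0.0265, edgeR). It was past the threshold in only 2 of the 7 fits that each left out 1 pool (those without mTEChi pool 2 and without mTEChi pool 4), with log2 differences from 3.91 to 4.89, so the call rests on mTEChi pools 1 and 3 and on each mTEClo pool. It was also lost when the age and sex of pools entered the fit, which left 1 residual degree of freedom in place of 5.

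Myh4 encodes the myosin heavy chain of the fastest skeletal fibres. WT mTEChi pools held 43.6, 7.63, 39.9 and 49.8 CPM, and WT mTEClo pools 1.02, 0.200 and 2.11. It had at least 5 reads in 25.3% ± 3.87 of mTEChi cells and 2.07% ± 0.863 of mTEClo cells. The log2 difference was 4.80 ± 0.956 (adjusted p 0.0183, edgeR) and stayed called without any 1 pool, at 4.30 to 5.53.

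Ttn was read in most cells of both sorts, 93.9% ± 1.63 of WT mTEChi and 60.2% ± 15.1 of WT mTEClo. Its level was 1826.1, 977.9, 1456.4 and 1176.9 CPM in mTEChi and 217.98, 521.7 and 316.9 CPM in mTEClo, with no overlap. The log2 difference of 1.78 ± 0.306 (adjusted p 0.0118, edgeR) stayed called without any 1 pool, at 1.57 to 2.13. Reads of Ttn were also the most evenly spread of the members, with 48 of the 620 mTEChi cells holding 50% of them.

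Myh3 encodes the embryonic myosin heavy chain, which fibres make before birth and again when they regenerate. It was at 60.2, 0.375, 21.6 and 40.0 CPM in WT mTEChi and at 1.75, 3.72 and 7.48 in WT mTEClo. Pool 2 of mTEChi, the 12-cell pool, held 3 reads and lay below every mTEClo pool, and the difference of 2.68 ± 1.20 on the log2 scale did not pass (adjusted p 0.152, edgeR). Without that pool Myh3 was called (adjusted p 0.0224). DESeq2 called it too (log2 difference 2.73, adjusted p 0.0486), with 7266 of 48171 genes higher. So did edgeR with plates in place of pools (4.04 ± 1.18, adjusted p 0.00753), a fit in which 25.8% of all genes were higher. A unit of the plate fit was the cells of a group on 1 plate, so newborn plates entered once for each sort. Cells with at least 5 reads made up 4.66% ± 3.31 of mTEChi and 5.81% ± 1.10 of mTEClo.

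Chrna1 had at least 5 reads in 30.8% ± 4.85 of WT mTEChi cells and in 7.55% ± 5.55 of WT mTEClo cells. Its level was 20.8, 3.00, 48.7 and 40.6 CPM in mTEChi and 0.507, 13.3 and 17.6 CPM in mTEClo. The groups overlapped through mTEChi pool 2, and the log2 difference of 1.31 ± 1.11 did not pass (adjusted p 0.421, edgeR). It turned to -1.05 when the age and sex of pools entered the fit. Over plates it was called (2.26 ± 0.85, adjusted p 0.0325), so that 7 members were higher there, beside 25.8% of all genes.

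Des, Mybpc1 and Myog were not called in either direction over pools. Des encodes desmin, the intermediate filament of all muscle types, and its level overlapped, at 14.6 to 42.4 CPM in WT mTEChi and 21.4 to 43.1 in WT mTEClo (log2 difference -0.24 ± 0.43). Mybpc1, the slow form of myosin-binding protein C, was at 2.62 to 9.34 CPM in mTEChi and at 37.1, 15.4 and 0.298 CPM in mTEClo (-1.84 ± 1.12), so mTEClo pool 3 lay far from the others. Myog, which encodes myogenin, was at 4.36, 1.75, 4.35 and 18.2 CPM in mTEChi and at 0.933, 22.8 and 23.8 CPM in mTEClo (-1.25 ± 1.03). The adjusted p was 0.729, 0.270 and 0.411 for the 3 genes (edgeR). Cells with at least 5 reads made up 29.7% ± 4.06 of mTEChi and 19.8% ± 3.26 of mTEClo for Des, 9.70% ± 1.76 and 9.22% ± 10.2 for Mybpc1, and 11.5% ± 3.86 and 17.9% ± 13.5 for Myog. With pool age and sex in the fit Myog was called lower (-3.18, adjusted p 0.0333, edgeR) and the difference of Mybpc1 turned to 1.13.

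In adult mTEClo, WT and Aire-KO, cells with the regulator or the receptor held Pou2f3, the factor that defines tuft cells, more often than other cells. At 5 or more reads Pou2f3 was also in 93.5% of newborn cTEC, so this cutoff by itself does not mark tuft cells. Of the 41 adult WT mTEClo cells with at least 5 reads of Myog, 35 (85.4%) also had at least 5 of Pou2f3, against 30.4% of the remaining cells. The share was 15 of 18 Chrna1 cells (83.3% against 34.2%) and 13 of 19 Myh3 cells (68.4% against 34.9%), but 10 of 50 Mybpc1 cells (20% against 39.4%). Member cells were deeper for Myog, with a median of 791072 reads against 581270, and for Chrna1, with 887588 against 587304. In Aire-KO mTEClo Pou2f3 was in 13 of 14 Myog cells (92.9% against 37.1%) and in all 3 Chrna1 cells (100% against 41.1%). Newborn mTEClo went the other way, with Pou2f3 in 3 of 7 Myog cells (42.9% against 69.2%) and 1 of 4 Chrna1 cells (25% against 69.2%). In WT mTEChi the share with Pou2f3 was 28.4% in Myog cells and 28.6% in the others. The pools of WT mTEClo differed in Pou2f3 itself, at 31.6, 309.6 and 342.5 CPM in pools 1 to 3. At 5 or more reads it was in 14.7%, 72.97% and 68.2% of their cells. Pools 1 to 3 held 5, 19 and 17 Myog cells and 3, 9 and 6 Chrna1 cells. They held 45, 4 and 1 Mybpc1 cells and 10, 5 and 4 Myh3 cells. The WT mTEClo shares above thus mix differences between pools with meeting within cells, and shares within each pool were not tested. Cells of 1 sort share their mice, so these shares are descriptions and no test was made.

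**Figure D2:**
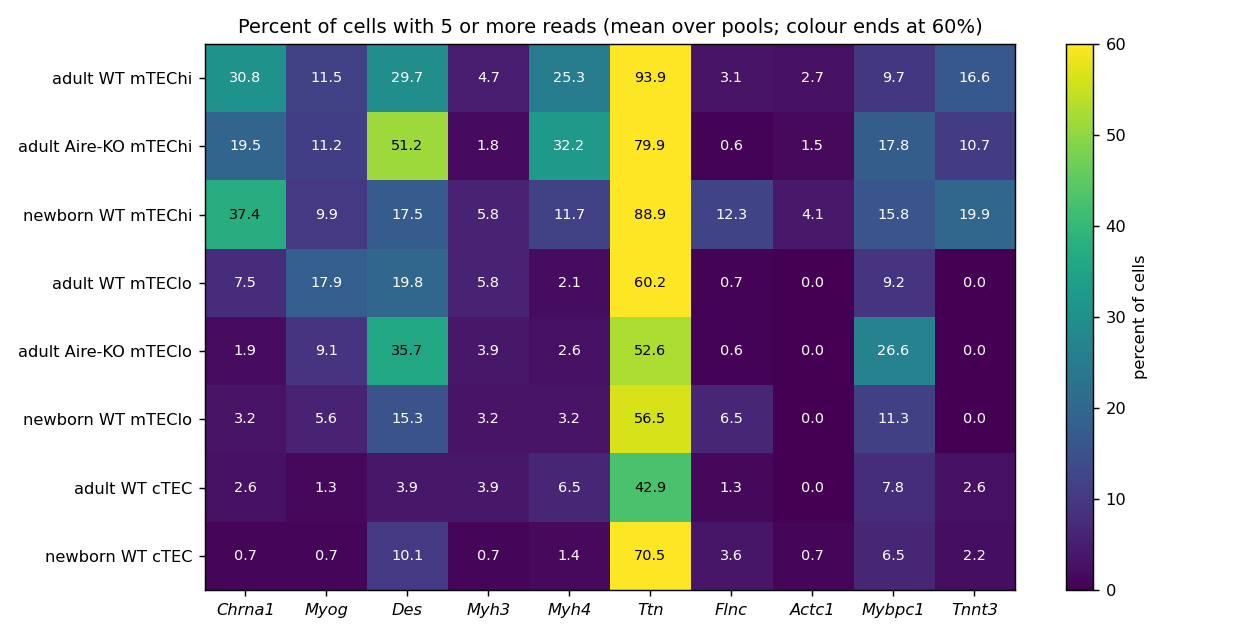
Percent of cells with 5 or more reads of each muscle gene (columns) in the 8 groups (rows), mean over pools where a group has several, with the number printed in each field and the colour scale ending at 60%. Ttn is read in 42.9% to 93.9% of cells everywhere, Tnnt3 and Actc1 are at 0 in the mTEClo groups, and Des and Mybpc1 are highest in Aire-KO groups.

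The second comparison was between Aire-KO and WT mTEChi of adults. The Aire-KO pool lay below the WT mean for Myh3, Flnc, Actc1, Tnnt3, Chrna1 and Myog and above it for Myh4, Des, Mybpc1 and Ttn. By edgeR over pools 0 of 10 members were called, at 0% of all genes tested. At an unadjusted p under 0.05 that fit held 3 members, all lower (Myh3, Flnc and Actc1), with 1.18% of all genes higher and 3.19% lower. DESeq2 called 1 member, Flnc, and 1.5% of all genes lower. Over plates 2 members were called, Myh3 and Actc1, and 4.44% of all genes were lower and 1.23% higher. Plates are technical units and those of 1 pool may share mice, so a spread over plates is not one over mice. The Aire-KO cells came from 1 pool of 5-week males, while the WT pool of that age and sex has 12 cells.

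Myh3 was at 0.744 CPM in Aire-KO mTEChi against 60.2, 0.375, 21.6 and 40.0 in WT. The Aire-KO value lay above the 12-cell pool 2, which held 3 reads, and below the other 3 pools. The log2 difference was -5.24 ± 2.28 (unadjusted p 0.0493, adjusted 0.925, edgeR), and over plates -6.13 ± 1.47 (adjusted p 0.0126). The 4 Aire-KO plates ran from 0.0911 to 1.37 CPM and the 9 WT plates from 0.394 to 257.3, so the plates overlapped at their ends. The lowest WT plate is the only one with cells of more than 1 pool (12 of pool 2 and 5 of pool 3), and the other 8 ran from 8.81 to 257.3 CPM. At least 5 reads were found in 6 Aire-KO cells, 1.78%, and in 43 WT cells, 6.94%, and the highest cell held 80 reads against 4327.

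Flnc was at 0.304 CPM in Aire-KO mTEChi, below each WT pool (0.375 to 30.7). The lowest WT value, that of the 12-cell pool 2, was 3 reads, so its place above Aire-KO is not firm. The log2 difference was -5.17 ± 2.07 (unadjusted p 0.0356, adjusted 0.925, edgeR), and DESeq2 gave -5.17 with an adjusted p of 0.0379. In Aire-KO 2 cells had at least 5 reads, and their highest held 68 reads against 4541 in WT. Since 2 WT cells hold 50% of the WT reads, the size of this difference rests on few cells.

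Actc1 was at 0.259 CPM in Aire-KO mTEChi, below each WT pool (1.00 to 8.68). The log2 difference was -3.86 ± 1.59 (unadjusted p 0.0395, adjusted 0.925, edgeR), and over plates -4.31 ± 1.26 (adjusted p 0.0351). Cells with at least 5 reads made up 1.48% of Aire-KO and 2.73% ± 2.07 of WT cells.

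Tnnt3 was at 1.67 CPM and Chrna1 at 5.16 CPM in Aire-KO mTEChi. Tnnt3 lay below each WT pool (5.15 to 29.03) and Chrna1 below 3 of 4 (20.8, 40.6 and 48.7, with 3.00 in pool 2). Their log2 differences were -2.70 ± 1.43 and -2.34 ± 1.85 (adjusted p 0.925 and 0.949, edgeR). That of Chrna1 turned to 0.16 with pool age and sex in the fit. The plates of the genotypes did not overlap for either gene: Chrna1 was at 2.24 to 6.70 CPM on 4 Aire-KO plates and 11.5 to 72.3 on 9 WT plates, and Tnnt3 at 0.765 to 2.42 against 3.69 to 18.3. The highest WT value of both was on the plate shared by pools 2 and 3, and the other 8 WT plates reached 41.6 and 8.18 CPM. Taken by itself, pool 2 held 3.00 CPM of Chrna1, within the Aire-KO plates. Neither was called over plates. At least 5 reads were found in 10.7% of Aire-KO cells for Tnnt3 and 19.5% for Chrna1, against 16.6% ± 6.11 and 30.8% ± 4.85 in WT.

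Myh4, Des, Mybpc1 and Ttn were not lower. Myh4 was at 87.1 CPM in Aire-KO mTEChi, above every WT pool (7.63 to 49.8), and its log2 difference was 1.42 ± 1.04. Des was at 58.3 CPM, also above every WT pool (14.6 to 42.4), with at least 5 reads in 51.2% of cells against 29.7% ± 4.06 and a log2 difference of 1.19 ± 0.59. Mybpc1 was at 19.8 CPM against 2.62 to 9.34 (1.85 ± 1.47), but its Aire-KO plates ran from 0.493 to 87.2 CPM. Ttn was at 1486.7 CPM, within the WT pools (0.25 ± 0.42), in 79.9% of cells against 93.9% ± 1.63. Myog, at 4.93 CPM and 11.2% of cells, lay within the WT range (-0.44 ± 1.56, and 1.24 with pool age and sex in the fit). None of these 5 was called by edgeR over pools (each adjusted p 0.925 or higher), by DESeq2 or over plates.

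Reads of Aire itself were found at 5 or more in 48.8% of the Aire-KO mTEChi cells. They were in 77.8% of the Aire-KO cells with Tnnt3 and 45.4% of those without, and in 69.7% against 43.8% for Chrna1. For Mybpc1 the order was the other way, 30% against 52.9%. Depth moved alike, with medians of 928252 against 807297 reads for Tnnt3, 1008480 against 790576 for Chrna1 and 764842 against 852773 for Mybpc1, and its part was not tested. Where the gene is disrupted relative to these reads was not examined.

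**Figure D3:**
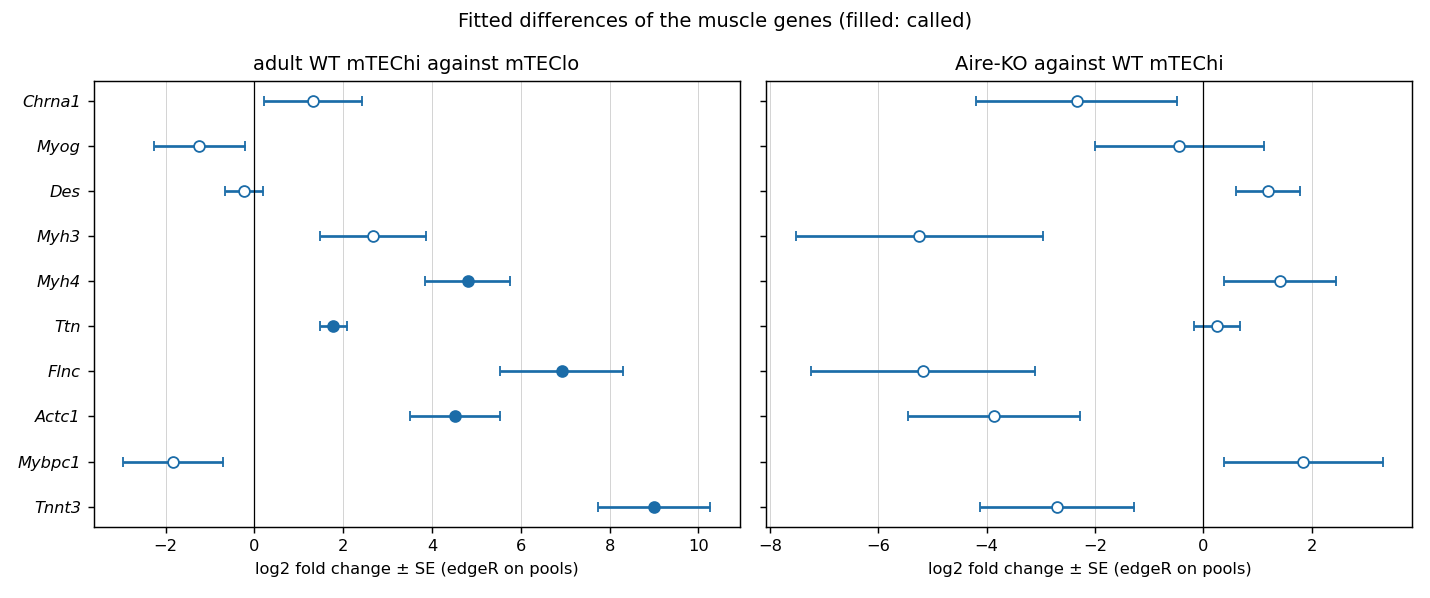
Log2 difference of each muscle gene with its SE (bars) from edgeR over the 11 mTEC pools, in adult WT mTEChi against mTEClo (left) and in Aire-KO against WT mTEChi (right), with filled points where a gene was called. Filled points occur only on the left, for Tnnt3, Flnc, Myh4, Actc1 and Ttn, and the bars of Aire-KO against WT mTEChi reach an SE of 2.28.

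In mTEClo the Aire-KO pool was compared with the 3 WT pools, and 0 of 10 members were called by edgeR over pools, DESeq2 or plates, at 0% of all genes in the pool fit. At an unadjusted p under 0.05 the pool fit held 0 members, with 2.14% of all genes higher and 1.41% lower. The widest difference was that of Chrna1, at 0.632 CPM against 0.507, 13.3 and 17.6 (log2 difference -3.96 ± 2.11), where the Aire-KO value lay near WT pool 1. The tuft cell markers summed to 933.8 CPM in Aire-KO mTEClo, between WT pool 1 (450.7) and WT pools 2 and 3 (3258 and 3589), and their part was not tested. Ttn was at 652.8 CPM against 217.98, 521.7 and 316.9 (0.94 ± 0.42, unadjusted p 0.0535). Mybpc1 was at 70.0 CPM, above the WT pools, in 26.6% of cells against 9.22% ± 10.2. The difference between the genotype effect in mTEChi and that in mTEClo was tested as an interaction and 0 of 39971 genes passed (lowest adjusted p 0.310, edgeR). Flnc had the lowest unadjusted p of the members there, 0.0351, with an interaction of -6.22.

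Newborn and adult WT cells were compared within each sort. In mTEChi 0 of 10 members were called, at 0% of all genes in the pool fit, and 0 by DESeq2 and over plates. Flnc was at 86.8 CPM in newborn mTEChi, above all adult pools (0.375 to 30.7), but 1 cell gave 5382 of its 8403 reads, and its log2 difference of 2.90 ± 1.25 had an unadjusted p of 0.0480, the only member under 0.05, beside 1.51% of all genes higher and 0.503% lower. Myh4 was at 8.41 CPM against 7.63 to 49.8.

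In newborn mTEClo 0 of 10 members were called by edgeR over pools, at 0% of all genes. At an unadjusted p under 0.05 there were 2 members, Flnc higher and Ttn lower, with 5.62% of all genes higher and 4.32% lower. Flnc was at 15.4 CPM in newborn mTEClo against 0.0800, 0.05 and 0.128 in the adult pools, in 8 cells (6.45%) against 2 (0.560%). Its log2 difference was 7.40 ± 1.53 (unadjusted p 0.00112, adjusted 0.180, edgeR). DESeq2 called it higher (7.41, adjusted p 0.000399), as 1.65% of all genes, and edgeR over plates did too (7.18 ± 2.11, adjusted p 0.0145), as 7.08% of all genes. Ttn was at 160 CPM against 217.98 to 521.7 (-1.20 ± 0.47, adjusted p 0.461).

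Cells sorted as cortical gave levels of the members for comparison with the mTEC sorts, with 1 pool per age and no test. Aire was at 3.57 CPM in adult cTEC, with at least 5 reads in 7.79% of cells. In newborn cTEC it was at 58.01 CPM and in 70.5% of cells, above every adult WT mTEClo pool (26.1 to 39.5 CPM). Newborn cTEC shared their plates with newborn mTEChi and mTEClo, and the source of these Aire reads was not tested. Newborn cTEC are thus not a background free of Aire. Adult cTEC held 0.0922 to 3.93 CPM of the 9 members other than Ttn, and newborn cTEC 0.227 to 7.07. Des was the highest of the 9 in newborn cTEC, at 7.07 CPM in 10.1% of cells, against 0.891 CPM in adult cTEC. Ttn was at 194.4 and 88.5 CPM, and 42.9% and 70.5% of the cells held at least 5 reads of it.

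How many members a cell held was counted next, with a gene counted at 5 or more reads and 3 or more of the 10 called several. In WT mTEChi 38.7%, 33.3%, 41.5% and 42.7% of the cells of pools 1 to 4 held several (39.1% ± 4.16, n = 4). In WT mTEClo the pools gave 9.68%, 10.8% and 9.09% (9.86% ± 0.874, n = 3), so the sorts did not overlap. Aire-KO mTEChi, at 39.6% (exact binomial interval 34.4% to 45.1%, counting error only), fell between the lowest and the highest WT pool, as did newborn mTEChi at 41.5% (34.0% to 49.3%). Aire-KO mTEClo was at 16.9% (11.3% to 23.8%), newborn mTEClo at 7.26%, newborn cTEC at 4.32% and adult cTEC at 1.30%.

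The number of members per WT mTEChi cell ran from 0 to 6. It was 0 in 2.26% of the cells, 1 in 23.2%, 2 in 35%, 3 in 25.6%, 4 in 9.84%, 5 in 3.39% and 6 in 0.645%. Ttn was usually among them: counted over the other 9 genes the share with several was 13.6% ± 5.35 in WT mTEChi, 14.5% in Aire-KO mTEChi, 14.6% in newborn mTEChi and 0.758% in WT mTEClo. Thinned to 200000 reads per cell, which left out no cell, the shares over all 10 were 12.9% ± 8.68, 15.7%, 17.0% and 5.81%. Counted over all cells without regard to pools, WT mTEChi was at 17.1% and WT mTEClo at 5.32% of thinned cells, and at 39.5% and 9.80% before thinning. With a gene counted from 1 read on, the shares were 80.8%, 65.7%, 81.3% and 38.9%. The Aire-KO value then lay below every WT mTEChi pool (75.2%, 83.3%, 84.1% and 80.5% in pools 1 to 4).

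**Figure D4:**
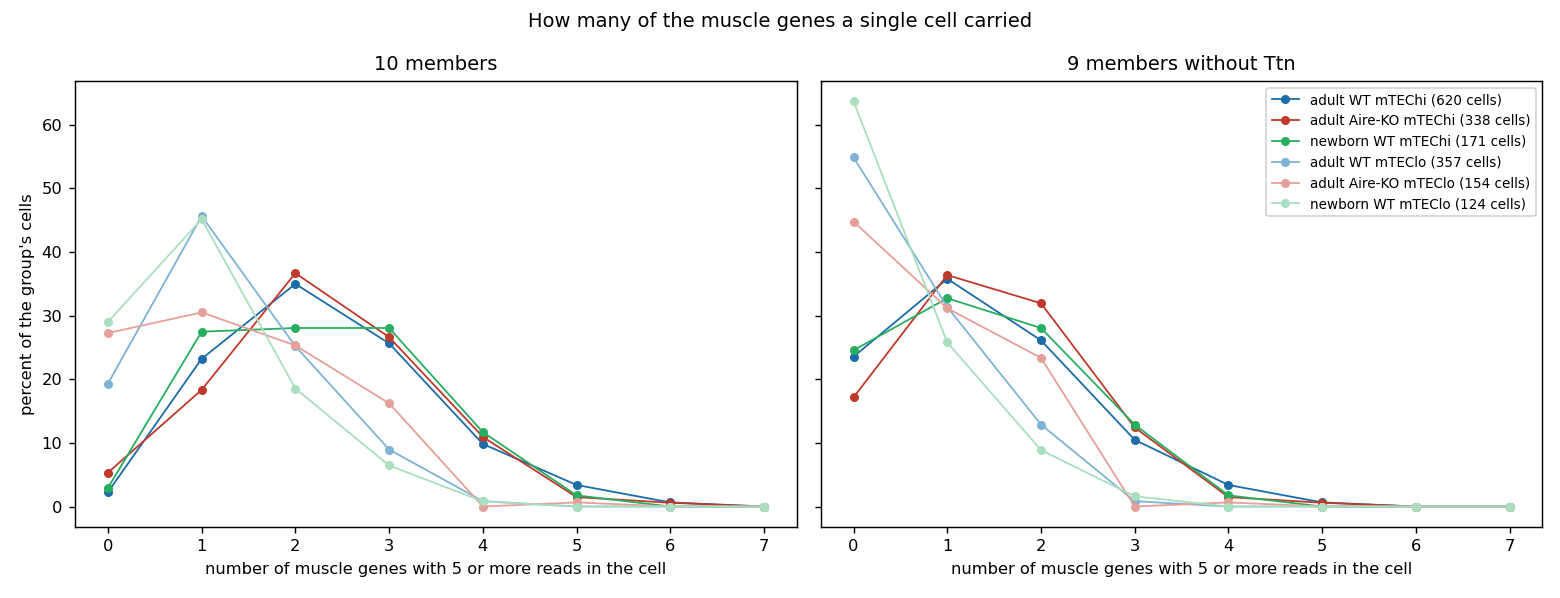
Percent of cells (vertical axis) holding each number of muscle genes at 5 or more reads (horizontal axis), 1 line for each of the 6 mTEC groups, over all 10 genes (left) and over the 9 without Ttn (right). The lines of the 3 mTEChi groups run together and lie to the right of the mTEClo lines, and none has a separate group of cells with many muscle genes.

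How often members met in a cell was set beside the product of their single shares. In WT mTEChi the product gave 39.3% of cells with several, where 39.5% were counted over all 620 cells, and 2.65% with 5 or more members, where 4.03% were counted. At 200000 reads per cell the same product gave 16.7% and 0.374%, where 17.1% and 0.323% were counted. In Aire-KO mTEChi it gave 39.2% and 2.24%, with 39.6% and 2.07% counted, and in newborn mTEChi 37.1% and 2.53%, with 41.5% and 1.75% counted. The counted share with several was above the product in the mTEClo groups, at 9.80% against 7.64% in adult WT, 16.9% against 10.2% in Aire-KO and 7.26% against 4.66% in newborn cells, and in newborn cTEC, at 4.32% against 1.76%. In adult WT mTEClo 10 cells held Chrna1 with Myog, where the product gave 2.07, and 8 held Myog with Myh3, against 2.18, while none of the Myog cells held Mybpc1, against 5.74. These are descriptions of cells that differ in depth, with no test, and the product ignores pools. In adult WT mTEClo pools 1 to 3 held 5, 19 and 17 Myog cells, but 45, 4 and 1 Mybpc1 cells. Differences between pools and meeting within cells can thus not be told apart there. Over the 45 pairs of members the Pearson r of log2(CPM + 1) across the 620 WT mTEChi cells ran from -0.17 (Myh4 with Ttn) to 0.22 (Ttn with Mybpc1), with a median of 0.04 and 0 pairs over 0.3. Des with Mybpc1 was among the more frequent pairs, with Des in 37 of the 70 Mybpc1 cells (52.9%).

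The 25 WT mTEChi cells with 5 or more members held 17 different combinations and came from 8 plates and 3 pools, at 276278 to 1252924 reads per cell. Among the 4 cells with 6 members, a cell of pool 1 held Chrna1, Myog, Des, Myh3, Myh4 and Ttn at 438.3, 26.97, 337.2, 153.7, 890.1 and 8.09 CPM. Another held Myh3 at 4424 CPM with Chrna1, Des, Myh4, Ttn and Tnnt3 at 10.2, 22.5, 38.9, 802.6 and 12.3 CPM. Other genes of muscle fibres were uneven in the 25 cells. Myl1, a fast myosin light chain, and Myod1, the regulator upstream of Myog, had 0 reads in all 25, and over all WT mTEChi they had at least 5 reads in 1.77% and 0.645% of cells. Acta1, the actin of adult skeletal muscle, was read in 4% of the 25 (3.06% of all), and Ckm, the muscle creatine kinase, in 8% (14.2% of all). The fast light chain Mylpf was read in 40% (40.6% of all) at up to 185.2 CPM, the slow myosin Myh7 in 44% (22.1% of all) at up to 275.9 CPM and the fast myosin Myh2 in 8% (1.45% of all) at up to 424.2 CPM. The cells read a median of 30 of the other muscle genes in the 7 lists described further on, against 27 in cells with 3 or 4 members and 24 in cells with 0 to 2. Aire moved with this count, at a median of 1738.2, 1154.9 and 789.4 CPM per cell, and median reads were 805839, 815168 and 750372. Median summed levels of fibroblast markers were 41.3, 8.77 and 3.79 CPM in the same order, of blood cell markers 52.05, 17.4 and 15.2, of endothelium markers 21.5, 6.69 and 5.10 and of tuft cell markers 57.5, 28.9 and 25.6. Those of satellite cells were at 2.60, 2.67 and 6.33 CPM, and doublets were not called. The part of Aire level, depth or other cells in these counts was not tested.

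Fewer cells with 5 or more members were found elsewhere: 7 in Aire-KO mTEChi, 3 in newborn mTEChi, 1 in Aire-KO mTEClo and 0 in WT mTEClo. The Aire-KO mTEClo cell held Myog at 572.97 CPM, Mybpc1 at 389.4 and Pou2f3 at 554.1.

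Other muscle genes were described from 7 lists, and all but 1 of their genes were tested. In WT mTEChi against mTEClo 30 (29.4%) were called higher and 6 (5.88%) lower, beside 7.54% and 4.13% of all genes, and their median log2 difference of 2.31 was close to that of the members. Contractile genes of slow and cardiac muscle had 9 of 16 higher and 0 lower, with a median of 3.78, led by the light chain Myl3 (8.78 ± 1.03, adjusted p 0.00332, edgeR) and with Tnni1 at 5.39. Among genes of excitation, calcium and energy 8 of 22 were higher and 0 lower, among them the calcium channel subunit Cacna1s (7.59), the respiratory chain subunit Cox6a2 (7.64) and Ampd1 (6.13). Z-disc and M-band genes had 6 of 18 higher and 0 lower, with Csrp3 (7.06), Ankrd1 (6.01), Myot (5.97 ± 0.726) and Myom3 (5.81). Fast skeletal contractile genes had 3 of 14 higher, with Myh2 at 6.77, and 1 lower, Mybpc2 (-1.78). Genes of the neuromuscular junction had 4 of 11 higher, with Chrng, the fetal receptor subunit, at 6.48, and 1 lower, Agrn (-1.41).

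Of the 7 lists 2 had more genes lower than higher, myogenic regulators and smooth muscle. Myogenic regulators had 0 of 13 higher and 2 lower, Eya1 (-2.71) and Mef2a (-1.17), with a median of 0.11. Smooth muscle genes had 0 of 8 higher and 2 lower, Tagln (-3.64) and Smtn (-1.87), with a median of -1.12. Myod1 had at least 5 reads in 4 of 620 WT mTEChi cells and Myf5 in 5, while Myog had them in 67.

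In Aire-KO against WT mTEChi 0 of these genes were called over pools, and their median log2 difference was -0.78, beside -1.39 for the members and -0.16 for all genes. Over plates 13 were lower (12.7%) and 1 higher (0.980%), beside 4.44% and 1.23% of all genes, the higher being Synpo2 of smooth muscle (1.02 ± 0.306). Of the 13, 6 are slow or cardiac contractile genes, and the lowest were Myh8 (-6.84 ± 1.79, adjusted p 0.0202), Nrap (-5.93 ± 1.54), Actn2 (-5.57 ± 1.51) and Myl3 (-5.48 ± 1.32) in edgeR over plates. Myf6, another regulator of the MyoD family, had at least 5 reads in 35 Aire-KO and 19 WT mTEChi cells.

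Myh3 and Myh4 lie in a row of 6 skeletal myosin genes on chromosome 11, in the order Myh3, Myh2, Myh1, Myh4, Myh8 and Myh13. In that order they had at least 5 reads in 6.94%, 1.45%, 3.55%, 22.9%, 1.77% and 7.58% of all WT mTEChi cells. In Aire-KO mTEChi the shares were 1.78%, 0.592%, 6.805%, 32.2%, 0.296% and 2.66%. Myh1 and Myh4, side by side in the row, were thus at higher shares in Aire-KO cells and the other 4 at lower shares. These shares ignore pools, Aire-KO has 1 pool, and some counts are small. Myh2 was read in 2 Aire-KO and 9 WT cells, and Myh8 in 1 and 11. For Myh4 the plates overlapped, at 7.14% to 46.9% of cells in Aire-KO and 14.1% to 32.5% in WT. Myh13 was at a level of 16.4 CPM in WT and 1.62 in Aire-KO, and Myh8 at 8.98 and 0.0819. Myh4 was at 43.1 and 87.1 CPM, but Myh1, at the higher share in Aire-KO, was at 3.75 CPM in WT and 2.205 in Aire-KO. Members of the row were read together in few cells: 12 WT cells held Myh3 and Myh4, 12 held Myh4 and its neighbour Myh1, and 9 of the 11 Myh8 cells held Myh13. Reads of such similar genes could be split between them by the mapping.

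Most genes next to a member were read more often in the cells that held the member. In WT mTEChi the nearest protein-coding gene on each side was looked up. Gjd2, 33.7 kb from Actc1, had at least 5 reads in 31.8% of the 22 Actc1 cells and 1.51% of the others. Ppfia4, 4.24 kb from Myog, was in 70.1% of Myog cells against 28.6%, and Chpt1 beside Mybpc1 in 75.7% against 35.6%. For Tnnt3 the share with Lsp1 was 98.7% against 74.8% and that with Mrpl23 25.97% against 5.89%. For Des the share with Speg, a muscle kinase gene 6.72 kb away, was 62.3% against 33.9%, and for Flnc that with Ccdc136 was 39.4% against 9.88%. Neighbours read in nearly all cells had no such gap, as for Flnc with Atp6v1f (93.9% against 99.1%) and Actc1 with Aqr (90.9% against 98.2%). Of 20 neighbours these 2 were the only ones with a lower share in member cells. No share for genes elsewhere in the genome is given beside this count. Depth differed too: median reads were higher in member cells for Mybpc1 (929810 against 756320), Des (831485 against 748590), Chrna1, Tnnt3 and Ttn. They were lower for Myog, Myh3, Myh4, Flnc and Actc1, and the part of depth was not tested. Without strand, transcription that runs on from 1 gene into the next cannot be told apart from transcription of both.

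**Figure D5:**
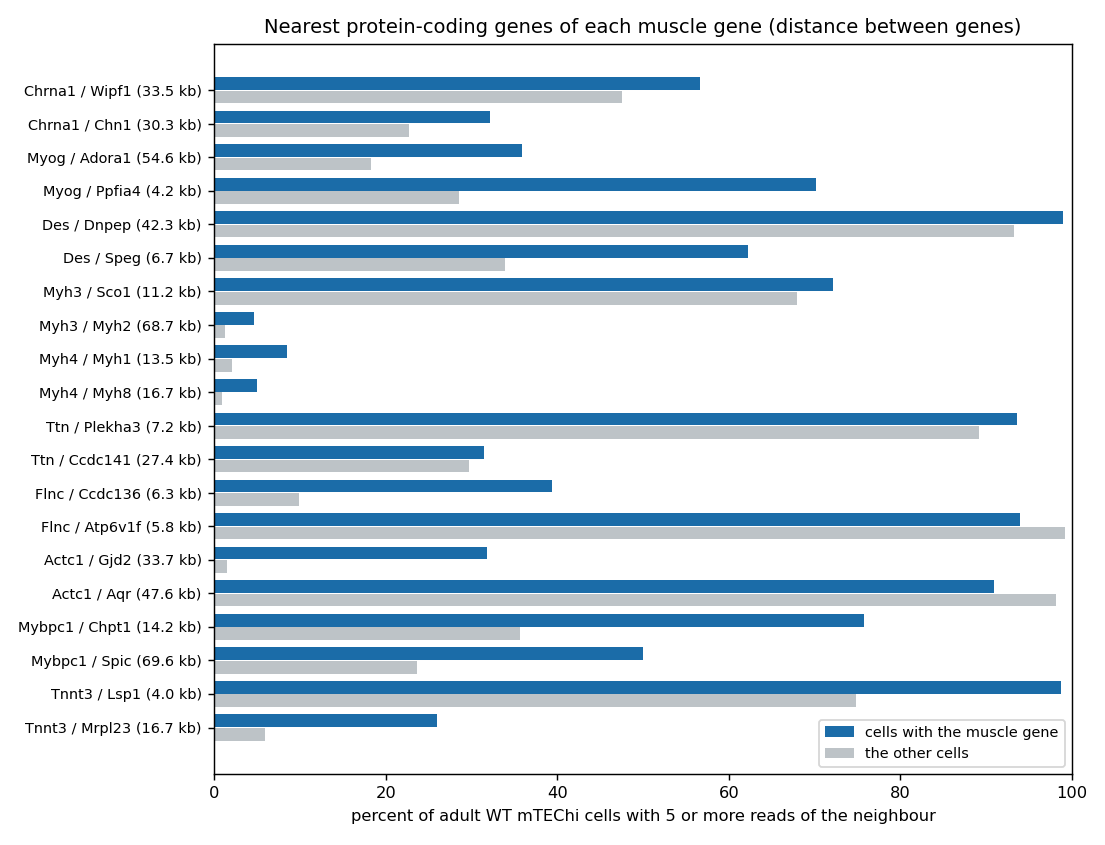
Percent of adult WT mTEChi cells with 5 or more reads of the nearest protein-coding gene on either side of each muscle gene, in cells that hold the muscle gene (blue) and in the other cells (grey), with the gap between the genes in kb. The blue bar is higher for 18 of the 20 neighbours, by the widest margin for Myog with Ppfia4, at 70.1% against 28.6%.

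Over all 29546 genes with at least 5 reads in 5 or more WT mTEChi cells, the likeness to each member was the Pearson r of log2(CPM + 1) over 620 cells. For 6 of the members at least 1 of the top 3 genes lay within 33.7 kb or overlapped the member. These near genes were Ppfia4 for Myog (r 0.40), Gm15179 and Speg for Des (0.36 and 0.30), Myhas, 0.456 kb from Myh4 (0.36), and Gm48752 for Mybpc1 (0.44). For Actc1 all 3 were near, C130080G10Rik at 0.787 kb (0.52), A530058N18Rik (0.48) and Gjd2 (0.38). So were all 3 for Tnnt3, Prr33 (0.52), Lsp1 (0.37) and Nctc1 (0.36). For Mybpc1 the first and the third in order lay on other chromosomes, Ube2c (0.44) and Iqgap3 (0.43), which both act in dividing cells. Chrna1 was closest to Gm36899 (0.34), Myh3 to Fbln2 (0.31), Ttn to Gria3 (0.44) and Flnc to Trim54 (0.41), which had reads in only 5 cells. No member was among the top 3 of another member. The points share plates, mice and depth, and no p was computed.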

How the data were processed

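Single thymic epithelial cells were profiled by RamDA-seq in 2148 sequencing samples of 1980 cells, 168 of which were sequenced in 2 runs. The deposited values are whole-number read counts per gene and cell. To make them the authors trimmed reads with fastp 0.20.0, mapped them to mm10 with STAR 2.7.3a, removed reads of mapping quality under 5 (SAMtools 1.9) and duplicates (Picard 2.21.1), and counted without strand with HTSeq 0.11.2. They kept cells with over 200000 reads on over 8000 genes, which all 1980 cells pass. How the 2 runs of a cell were combined is not given in the sources used here. A second, length-scaled table was not used. Symbols and positions are those of GENCODE M21 on GRCm38, in which 48263 of 48437 genes had an entry. RamDA-seq carries no molecular identifiers, so intervals cover counting error only.

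Counts were summed over the cells of a pool, a group's cells of 1 age and sex (444, 12, 82 and 82 cells in WT mTEChi pools 1 to 4, 217, 74 and 66 in WT mTEClo pools 1 to 3, 338 and 154 in Aire-KO mTEChi and mTEClo, 77 in adult cTEC, and 171, 124 and 139 in newborn mTEChi, mTEClo and cTEC), and tested with edgeR 4.0.16 in R 4.3.3 (TMM, filterByExpr, quasi-likelihood test, 2-sided, 6 groups, 11 mTEC pools, 5 residual degrees of freedom). Adjusted p-values (Benjamini-Hochberg) run over all genes tested, and SEs were derived from the fold and the test statistic. A gene was read in a cell at 5 or more reads. For per-cell shares of 1 pool exact binomial intervals at 95% were used, and thinning drew 200000 reads per cell (seed 1). Alternatives were RLE scaling, DESeq2 1.42.0, no filter, plates, limma 3.58.1 on the mean log2(CPM + 1) of a pool's cells, an age and sex block, each pool left out, other read and gene minimums, thinning, weighting by cells and, added after the data were seen, counts without Ttn. The fits were tested on simulated counts.

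The 10 members are all named, and other muscle genes were named where the pool fit called them, at most 12 in each direction by fold, with examples. Genes called over plates, the regulators Myod1, Myf5 and Myf6, and Myl1, Mylpf, Myh7, Acta1 and Ckm were named after their values were seen. Likeness and neighbours followed a set rule, the top 3 genes by r and the nearest protein-coding gene on each side. Members, lists, markers and tests were chosen with earlier results of these data known. Doublets were not called. RefSeq promoter windows were searched for the motifs with GRCm38.p6 letters.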

Additional observations from a re-analysis of the deposited data

Results flagged for a closer look

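In the 4 pools of adult WT mTEChi, 2 levels had a pool that stood apart by its ratio, the gap to the nearest pool divided by the range (past Dixon's critical value at 95% for 4 samples). Myog was at 18.2 CPM in the 4-week female pool, against 1.75 to 4.36 CPM in the others (ratio 0.842), and 1 cell held 54.4% of the reads of that pool. Tnnt3 was at 29.03 CPM in the 12-cell pool of 5-week males, against 5.15 to 7.63 CPM (ratio 0.896), and 1 cell held 87.9% of them. Chance flags about 1 in 20 such groups, and 21 were examined. No difference between effects in the sorts passed in the 20 interaction tests of the members.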

How the results depend on the processing

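Limits come first. Most groups have 1 pool, cells of a pool share mice, and a few cells hold much of the reads of Flnc, Actc1 and Myh3, so differences of those genes at pool level are imprecise. No paired analysis was possible for newborn against adult cells, because newborn pools share no age with adults.

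The counts of members called moved as follows. For Aire-KO against WT mTEChi the count of 0 became 1 with DESeq2 (1.5% of all genes lower) and 2 over plates (4.44% lower). For WT mTEChi against mTEClo the count of 5 became 7 over plates, 3 with limma and 3 to 6 when 1 pool was left out. For newborn against adult mTEClo the count of 0 became 1 with DESeq2 (1.65% of all genes higher) and 1 over plates (7.08% higher). The replicate block (age and sex of the pools, which share no more than these) kept 4 of the 5 calls of WT mTEChi against mTEClo, lost Actc1 and called Myog lower (log2 difference -3.18, adjusted p 0.0333, edgeR). It turned the log2 difference of Chrna1 to 0.16 in Aire-KO against WT and to -1.05 in mTEChi against mTEClo, that of Myog in Aire-KO against WT to 1.24 and that of Mybpc1 in mTEChi against mTEClo to 1.13.

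Other reversals were of values that no fit called. In Aire-KO against WT mTEChi limma gave 0.0078 for Myog and -0.26 for Ttn, and leaving out 1 pool gave -0.65 to 0.62 for Myog. In mTEChi against mTEClo Des was at 0.29 over plates, 0.66 with limma and -0.54 to 0.12 when 1 pool was left out. The causes were not tested. Of 260 alternative values of single members 88.8% kept direction and call, 10 lost a call, 8 gained one and 11 reversed.

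The percent of cells with several members, in the order WT mTEChi, Aire-KO mTEChi, newborn mTEChi and WT mTEClo, was 80.8, 65.7, 81.3 and 38.9 from 1 read on and 22.8, 29.3, 22.8 and 7.68 from 10 reads on. It was 73.3, 76.3, 69.6 and 34.5 for 2 or more members and 13.1, 13.0, 13.5 and 0.758 for 4 or more. Thinned cells gave 12.9, 15.7, 17.0 and 5.81, and counts without Ttn, added after the data were seen, 13.6, 14.5, 14.6 and 0.758.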
